A study of Homo sapiens with 12 samples.

Results

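The 10 genes LRRC58, SPOPL, PI15, PHIP, NAPG, NIN, CD2AP, OGFRL1, OSBPL8 and NRIP1 were followed in U251 cells, a long-established line from a human glioblastoma, in which small interfering RNA (siRNA) targeted ETV6, NFKB1 or both. They were chosen from these same arrays because their RNA lay far below control with a single siRNA or far above control with both siRNAs, so their differences between siRNA groups are given as a description and without p-values, and nothing is read from counts of calls among them. A probe set is a group of short probes read together as 1 level for a transcript, in log2 units here, so that a difference of 1 is a 2-fold change. The array table holds 21 probe sets that name 1 of these genes alone, out of 17313 such probe sets, and the 10 genes are part of 10346 measured genes. Each of the 12 arrays measured total RNA of 1 sample, in 4 groups of 3. ETV6 siRNA cells, NFKB1 siRNA cells and double siRNA cells, which got both, were compared with control siRNA cells, which got an siRNA without a known human target. All siRNAs were pools, each was added at 50 nM with the same lipid reagent, and the labels do not state the total siRNA of a double transfection. All cells were transiently transfected U251, and whether the 3 samples of a group were cultured separately is not stated, so that p-values and SDs cover only the spread of these samples, which may be technical.

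ETV6 is a repressor of transcription and one of the ETS factors, which bind a GGAA core in promoters. NFKB1 encodes p105, the precursor of the NF-kB subunit p50, which as a dimer binds DNA without an activation domain of its own. The 10 genes are not a pathway. SPOPL and PHIP encode substrate receptors of cullin ubiquitin ligases, NAPG and CD2AP work in membrane traffic, NIN at the centrosome, OSBPL8 at contacts between the endoplasmic reticulum and the plasma membrane, and NRIP1 in the nucleus as a co-repressor of nuclear receptors, while PI15 is secreted.

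The promoters of LRRC58, SPOPL and PHIP are shown because these genes had similar low levels with either single siRNA. Each stretch is 300 bases, from 250 bases before to 50 bases after the annotated start, 5′ to 3′ on the strand of the gene, from RefSeq on GRCh38.p14. LRRC58 is at chr3:120349305-120349604 on the minus strand, SPOPL at chr2:138501520-138501819 on the plus strand and PHIP at chr6:79078205-79078504 on the minus strand. Capitals mark CCGGAAG, a stretch that holds the GGAA core, searched on both strands. GGAA without these flanking bases also stands in each of these promoters and is not marked.
LRRC58: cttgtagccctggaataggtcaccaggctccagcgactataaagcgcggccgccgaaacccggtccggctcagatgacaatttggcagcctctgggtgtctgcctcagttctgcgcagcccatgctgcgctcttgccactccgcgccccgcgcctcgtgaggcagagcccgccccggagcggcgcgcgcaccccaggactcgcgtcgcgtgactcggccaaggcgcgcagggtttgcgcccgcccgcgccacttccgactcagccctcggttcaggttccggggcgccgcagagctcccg
SPOPL: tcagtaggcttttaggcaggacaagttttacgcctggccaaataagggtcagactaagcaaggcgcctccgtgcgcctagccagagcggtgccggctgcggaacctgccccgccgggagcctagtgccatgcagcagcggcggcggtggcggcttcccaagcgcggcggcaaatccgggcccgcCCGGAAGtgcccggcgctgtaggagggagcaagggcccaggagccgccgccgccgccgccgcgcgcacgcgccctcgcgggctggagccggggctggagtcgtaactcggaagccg
PHIP: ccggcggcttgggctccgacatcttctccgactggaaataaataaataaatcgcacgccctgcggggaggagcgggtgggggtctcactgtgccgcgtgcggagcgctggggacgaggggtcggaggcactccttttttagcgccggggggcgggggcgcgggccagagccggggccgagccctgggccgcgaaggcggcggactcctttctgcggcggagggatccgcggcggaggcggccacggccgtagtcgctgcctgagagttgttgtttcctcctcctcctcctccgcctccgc
The RefSeq table held 12 promoters for LRRC58, SPOPL, PHIP, NAPG, NIN, CD2AP, OGFRL1, OSBPL8 and NRIP1. CCGGAAG stood in 1 of the 12, that of SPOPL, where it began at position -66 from the start on the gene's own strand, against 10.3% of all 35116 promoters of the same length. The NF-kB site consensus, searched by the same means, stood in 0 of the 12, against 5.91% of all. A match is a stretch of letters and not a measured site, and no match says only that these letters are not in these windows. The GC content was 70% for LRRC58, 71.3% for SPOPL and 70% for PHIP, against a median of 58.7% over all promoters.

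The siRNA targets check the labels. On its brighter probe set ETV6 read 6.80, 6.78 and 6.60 on the log2 scale in ETV6 siRNA cells, 7.44, 7.36 and 7.29 in double siRNA cells, and 9.02, 9.02 and 8.58 in control siRNA cells, so that 22.6% and 35.1% of the control level were left. NFKB1 read 6.95, 6.75 and 6.05 in NFKB1 siRNA cells, 6.50, 6.58 and 6.57 in double siRNA cells, and 7.22, 7.24 and 7.49 in control siRNA cells, which left 60.3% and 58.8%. All of these groups lay below control without overlap. Of 12 glial and glioma markers 10 were in the table, GFAP among them with group means from 12.97 to 13.51, and 0 of 14 immune, endothelial, epithelial and neuronal markers were in it, so those cells were not analysed here. A lower value in such bulk samples cannot tell fewer cells with the RNA from less RNA per cell.

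The array of control siRNA replicate 3 stood apart for these genes. It read above both other control arrays on all 21 probe sets of the 10 genes, against 7264 of 17313 probe sets in all. This array is part of the control mean on which the genes were picked, so nothing is read from that count. The brightest probe set of a gene is the one with the highest mean over the arrays. On it, the distance of control siRNA replicate 3 from the mean of control replicates 1 and 2 was 0.23 to 1.34 on the log2 scale. The median was 0.76 (-0.0022 over all probe sets). Differences from control are therefore given below with and without this array for each gene. The double siRNA arrays stood apart from the other 9 in some control probe measures, given after the levels.

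In outline, 8 of the 10 genes had the group means, on the brightest probe set, in the order double siRNA, control siRNA, ETV6 siRNA, NFKB1 siRNA, from high to low. NIN was instead highest in control siRNA cells, and OGFRL1 was higher with ETV6 siRNA than with control siRNA. The median difference from control was -0.71 with ETV6 siRNA, -1.44 with NFKB1 siRNA and 0.59 with double siRNA, on the log2 scale, beside medians of 0.0064, -0.0065 and -0.04 over all probe sets. With ETV6 siRNA 5 of the 10 were called lower (limma, Benjamini-Hochberg adjusted p under 0.05), where 6.35% of all probe sets were called, 4.06% lower. With NFKB1 siRNA 7 were called lower, where 34.9% of all were called, 23.7% lower. With double siRNA 6 were called higher, where 76.4% of all were called, 36.5% higher. The genes were picked on these differences, so nothing is read from these counts.

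**Figure D1:**
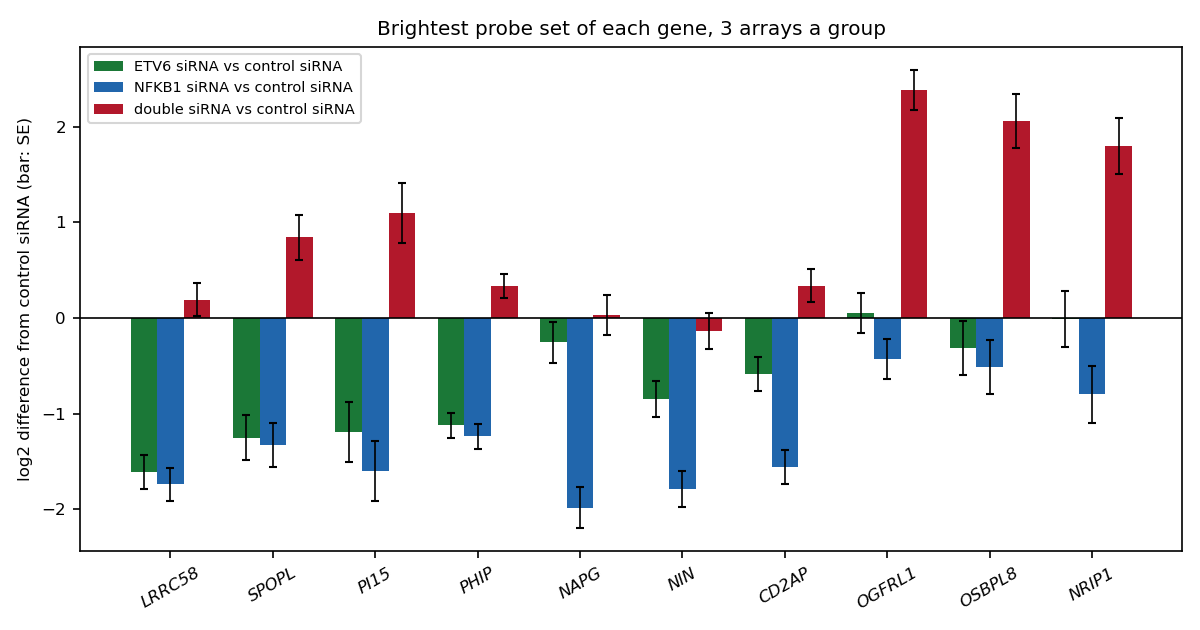
Log2 difference from control siRNA on the brightest probe set of each gene (vertical axis), for ETV6 siRNA, NFKB1 siRNA and double siRNA; bars start at 0 and error bars are the SE of the fitted difference, 3 arrays a group. LRRC58, SPOPL, PI15 and PHIP had like values with either single siRNA, NAPG, NIN and CD2AP were lower with NFKB1 siRNA, and OGFRL1, OSBPL8 and NRIP1 stood out with double siRNA.

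LRRC58 encodes a protein with leucine-rich repeats, and the deposited table has 1 probe set for it. It read 7.86, 8.11 and 7.66 in ETV6 siRNA cells, 7.91, 7.74 and 7.59 in NFKB1 siRNA cells, 9.67, 9.68 and 9.68 in double siRNA cells, and 9.29, 9.22 and 9.95 in control siRNA cells, in log2 units. Every array of a single siRNA lay below every control array, and the double siRNA arrays lay among the control arrays. The difference from control was -1.61 ± 0.17 (SE, n = 3) with ETV6 siRNA, a 3.05-fold lower level, and -1.74 ± 0.17 with NFKB1 siRNA, 3.34-fold lower. With double siRNA it was 0.19 ± 0.17. Double siRNA cells were 3.49-fold above ETV6 siRNA cells and 3.82-fold above NFKB1 siRNA cells. Without control siRNA replicate 3 the 3 differences from control were -1.38, -1.51 and 0.42, and the double siRNA arrays then lay above control replicates 1 and 2.

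SPOPL encodes an adaptor that brings substrates to the ubiquitin ligase scaffold CUL3, as its paralog SPOP does. Its brightest probe set, 225658_at, read 7.67, 7.94 and 7.53 in ETV6 siRNA cells, 7.75, 7.78 and 7.38 in NFKB1 siRNA cells, 9.82, 9.73 and 9.88 in double siRNA cells, and 8.67, 8.59 and 9.63 in control siRNA cells. The 3 levels did not overlap: both single siRNA groups lay below control and double siRNA lay above it, with control siRNA replicate 3 close to the double siRNA arrays. The differences from control were -1.25 ± 0.23 with ETV6 siRNA, -1.33 ± 0.23 with NFKB1 siRNA and 0.84 ± 0.23 (SE) with double siRNA, that is 2.38-fold and 2.51-fold lower and 1.80-fold higher. Without control siRNA replicate 3 they were -0.92, -0.99 and 1.18. The other probe set, 225659_at, gave -1.20 ± 0.18, -1.09 ± 0.18 and 0.66 ± 0.18, in the same directions, from arrays of 5.90 to 6.16 with ETV6 siRNA, 6.06 to 6.19 with NFKB1 siRNA, 7.85 to 7.89 with double siRNA and 6.78 to 7.73 with control siRNA.

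PHIP encodes a bromodomain protein that serves as a substrate receptor of CUL4 ubiquitin ligases and binds the insulin receptor substrate IRS1. On 213074_at it read 8.62, 8.84 and 8.45 in ETV6 siRNA cells, 8.61, 8.47 and 8.48 in NFKB1 siRNA cells, 10.19, 10.06 and 10.03 in double siRNA cells, and 9.66, 9.55 and 10.06 in control siRNA cells. The single siRNA groups were low without overlap, and the double siRNA arrays reached into the control range through control siRNA replicate 3. The differences from control were -1.12 ± 0.13, -1.24 ± 0.13 and 0.34 ± 0.13 (SE) with ETV6, NFKB1 and double siRNA, and -0.97, -1.08 and 0.49 without control siRNA replicate 3. All 3 probe sets of PHIP gave this picture for the single siRNAs: 212542_s_at had -1.11 and -1.30 with ETV6 and NFKB1 siRNA, and 244811_at had -1.05 and -1.35. With double siRNA they differed more among themselves, at 0.52 ± 0.18 on 212542_s_at, above control without overlap, and 0.15 ± 0.17 on 244811_at, among the control arrays.

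PI15 encodes peptidase inhibitor 15, a secreted protein of the CAP domain family. Its brightest probe set, 229947_at, read 8.58, 9.05 and 8.38 in ETV6 siRNA cells, 8.47, 8.31 and 8.0 in NFKB1 siRNA cells, 10.98, 10.82 and 11.07 in double siRNA cells, and 9.53, 9.30 and 10.75 in control siRNA cells. Again no group of a single siRNA overlapped control, and control siRNA replicate 3 lay just below the lowest double siRNA array. The differences were -1.19 ± 0.31, -1.60 ± 0.31 and 1.10 ± 0.31 (SE) with ETV6, NFKB1 and double siRNA, and -0.75, -1.15 and 1.54 without that control array. The other probe set, 207938_at, gave another picture. It read 7.55, 7.50 and 7.40 in ETV6 siRNA cells, 7.19, 7.43 and 7.25 in NFKB1 siRNA cells, 7.69, 7.73 and 7.68 in double siRNA cells, and 7.25, 7.36 and 7.46 in control siRNA cells. Its single siRNA groups overlapped control, at 0.13 ± 0.08 and -0.06 ± 0.08, and its double siRNA arrays lay above control at 0.34 ± 0.08. The low levels of PI15 with a single siRNA therefore rest on 1 of its 2 probe sets.

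**Figure D2:**
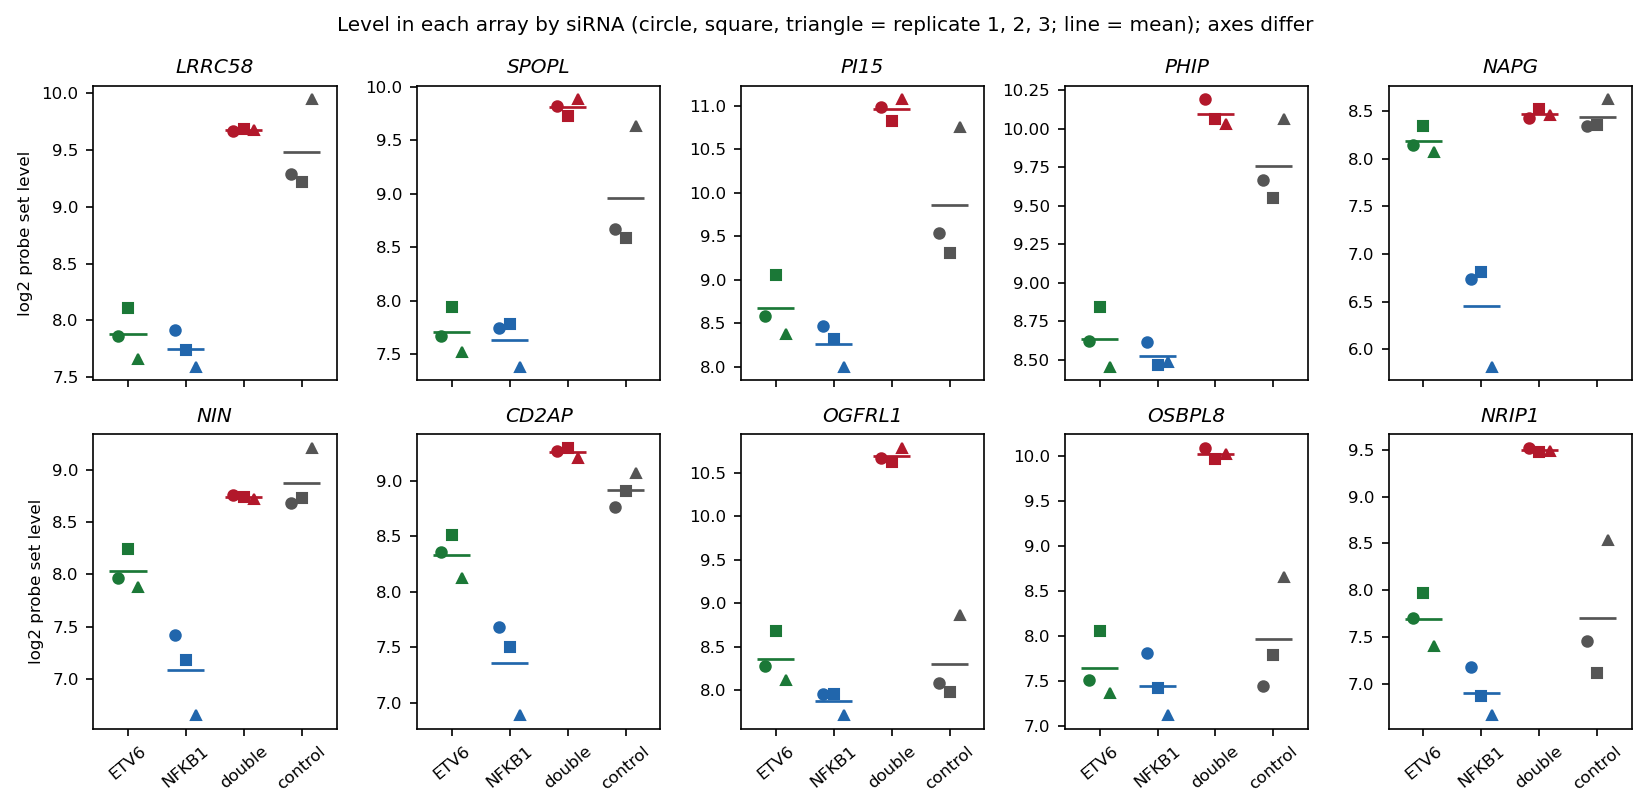
Log2 level of the brightest probe set of each of the 10 genes in each array (vertical axes, which differ between panels), with ETV6 siRNA, NFKB1 siRNA, double siRNA and control siRNA from left to right; circle, square and triangle are replicates 1, 2 and 3 and the line is the mean. Control siRNA replicate 3 is the upper grey triangle in every panel, and the double siRNA arrays lie close together.

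NAPG encodes gamma-SNAP, a member of the SNAP family that works with the ATPase NSF on SNARE complexes after membrane fusion. On 225448_at it read 8.14, 8.35 and 8.07 in ETV6 siRNA cells, 6.74, 6.81 and 5.82 in NFKB1 siRNA cells, 8.42, 8.52 and 8.46 in double siRNA cells, and 8.34, 8.35 and 8.62 in control siRNA cells. The NFKB1 siRNA arrays alone were low, and those of ETV6 siRNA and of double siRNA both overlapped control. NFKB1 siRNA differed from control by -1.98 ± 0.21 (SE), a 3.95-fold lower level, with replicate 3 lowest. The differences with ETV6 siRNA and double siRNA were -0.25 ± 0.21 and 0.03 ± 0.21. Without control siRNA replicate 3 the 3 were -1.89 with NFKB1 siRNA, -0.16 with ETV6 siRNA and 0.12 with double siRNA. On the other probe set, 210048_at, NFKB1 siRNA cells read 7.22, 7.23 and 6.92, against 7.02, 7.03 and 7.14 in control siRNA cells, a difference of 0.06 ± 0.08. Double siRNA cells read 7.56, 7.56 and 7.52 there, 0.49 ± 0.08 above control and without overlap. The low level of NAPG with NFKB1 siRNA and its return to control with both siRNAs thus show on 1 of its 2 probe sets.

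CD2AP, an adaptor that links endocytic membranes and receptors to the actin cytoskeleton, has 1 probe set in the deposited table. It read 8.35, 8.51 and 8.12 in ETV6 siRNA cells, 7.69, 7.50 and 6.89 in NFKB1 siRNA cells, 9.27, 9.29 and 9.21 in double siRNA cells, and 8.76, 8.91 and 9.07 in control siRNA cells. The 4 groups did not overlap, and their order was double siRNA, control siRNA, ETV6 siRNA and NFKB1 siRNA. The differences from control were -0.58 ± 0.17 with ETV6 siRNA, -1.56 ± 0.17 with NFKB1 siRNA and 0.34 ± 0.17 (SE) with double siRNA, and -0.51, -1.48 and 0.42 without control siRNA replicate 3.

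NIN encodes ninein, which anchors microtubules at the subdistal appendages of the mother centriole. Its brightest probe set, 225921_at, read 7.96, 8.24 and 7.88 in ETV6 siRNA cells, 7.42, 7.18 and 6.65 in NFKB1 siRNA cells, 8.75, 8.74 and 8.72 in double siRNA cells, and 8.68, 8.73 and 9.21 in control siRNA cells. NFKB1 siRNA arrays were lowest and ETV6 siRNA arrays next, without overlap, while the double siRNA arrays lay among the control arrays. The differences from control were -0.84 ± 0.19, -1.79 ± 0.19 and -0.14 ± 0.19 (SE) with ETV6, NFKB1 and double siRNA, and -0.67, -1.62 and 0.03 without control siRNA replicate 3. Of its other probe sets, 224304_x_at gave -0.20 ± 0.12, -0.36 ± 0.12 and 0.10 ± 0.12. The third, 234299_s_at, gave -0.51 ± 0.25, -0.98 ± 0.25 and 0.04 ± 0.25, but it was at or below the 5th percentile of the array in 3 ETV6 siRNA, 3 NFKB1 siRNA, 3 double siRNA and 2 control siRNA arrays. The direction with NFKB1 siRNA was the same on the 3 probe sets, and the size was not.

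OGFRL1 encodes a protein related in sequence to the opioid growth factor receptor. On 226810_at it read 8.28, 8.68 and 8.12 in ETV6 siRNA cells, 7.96, 7.96 and 7.71 in NFKB1 siRNA cells, 10.68, 10.62 and 10.79 in double siRNA cells, and 8.08, 7.98 and 8.86 in control siRNA cells. The double siRNA arrays were far above all others, control siRNA replicate 3 included. The differences from control were 0.05 ± 0.21 with ETV6 siRNA, -0.43 ± 0.21 with NFKB1 siRNA and 2.39 ± 0.21 (SE) with double siRNA, a 5.23-fold higher level, and 0.33, -0.15 and 2.66 without control siRNA replicate 3. The size with double siRNA differed between probe sets: 238469_at gave 1.75 ± 0.12, and 219582_at gave 0.45 ± 0.07. On 219582_at the double siRNA arrays read 8.84, 8.92 and 8.92, against 8.44, 8.34 and 8.56 in control siRNA cells, so that they still did not overlap. With NFKB1 siRNA 238469_at gave -0.61 ± 0.12, with 1 array at or below the 5th percentile of its array, and 219582_at gave 0.01 ± 0.07.

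OSBPL8 encodes ORP8, which exchanges phosphatidylserine for phosphoinositides where the endoplasmic reticulum meets the plasma membrane. It read 7.51, 8.05 and 7.36 in ETV6 siRNA cells, 7.80, 7.42 and 7.11 in NFKB1 siRNA cells, 10.09, 9.96 and 10.02 in double siRNA cells, and 7.44, 7.78 and 8.65 in control siRNA cells, on 212582_at. Both single siRNA groups overlapped control, at -0.31 ± 0.28 and -0.51 ± 0.28 (SE), and the double siRNA arrays lay above every other array. Double siRNA differed from control by 2.06 ± 0.28, a 4.18-fold higher level. The other probe set, 212585_at, gave -0.41 ± 0.32, -0.63 ± 0.32 and 2.03 ± 0.32, a like size. Without control siRNA replicate 3 the first probe set gave 0.03, -0.17 and 2.41.

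NRIP1 encodes RIP140, a co-repressor that binds ligand-bound nuclear receptors such as the estrogen receptor. On 202599_s_at it read 7.70, 7.97 and 7.41 in ETV6 siRNA cells, 7.18, 6.87 and 6.66 in NFKB1 siRNA cells, 9.52, 9.48 and 9.49 in double siRNA cells, and 7.45, 7.11 and 8.54 in control siRNA cells. The ETV6 siRNA arrays lay within the control range, NFKB1 siRNA overlapped it, and the double siRNA arrays were above it. The differences from control were -0.01 ± 0.29 with ETV6 siRNA, -0.80 ± 0.29 with NFKB1 siRNA and 1.80 ± 0.29 (SE) with double siRNA, the last a 3.47-fold higher level. Control siRNA replicate 3 moved these most after PI15: without it they were 0.41, -0.38 and 2.22. The other probe set, 202600_s_at, gave -0.19 ± 0.30, -1.13 ± 0.30 and 1.75 ± 0.30, with 2 ETV6 siRNA, 3 NFKB1 siRNA and 2 control siRNA arrays at or below the 5th percentile of their array.

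**Figure D3:**
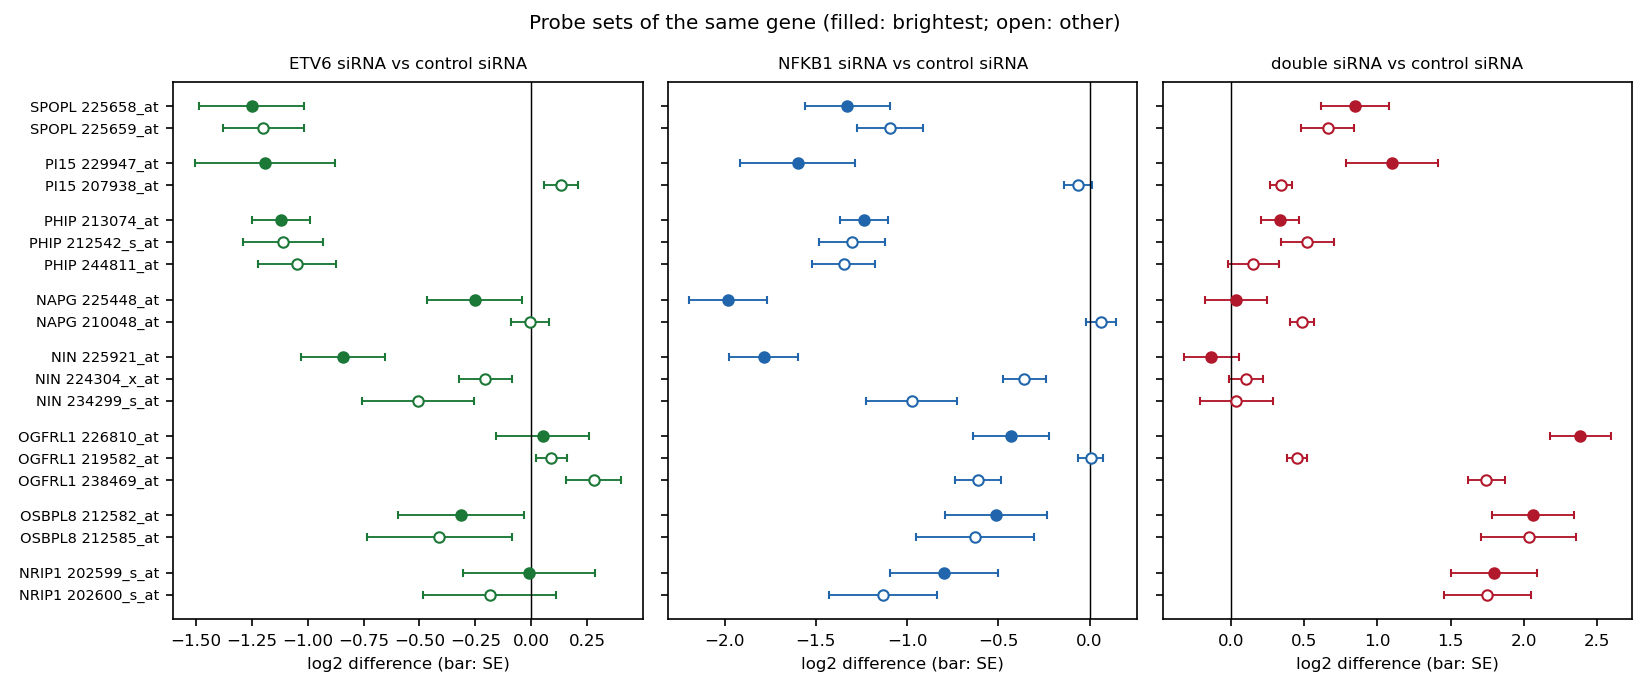
Log2 difference from control siRNA (horizontal axes) on each probe set of the 8 genes with over 1 probe set, for ETV6, NFKB1 and double siRNA; filled points are the brightest probe set of a gene, open points the others, and bars the SE. Probe sets of SPOPL, PHIP, OSBPL8 and NRIP1 lie close together, those of PI15, NAPG and OGFRL1 do not. Those of NIN differ in size, at -1.79, -0.36 and -0.98 with NFKB1 siRNA.

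Set against the single siRNAs, double siRNA cells were higher on the brightest probe set of all 10 genes, without overlap. The differences ran from 0.28 for NAPG to 2.38 for OSBPL8 against ETV6 siRNA cells, with a median of 1.80, and from 1.57 for PHIP to 2.82 for OGFRL1 against NFKB1 siRNA cells, with a median of 2.09. Arrays without overlap and higher with double siRNA were found on 41.3% and 43.4% of all probe sets in these comparisons. NFKB1 siRNA cells were below ETV6 siRNA cells without overlap for NAPG, NIN, CD2AP, OGFRL1 and NRIP1, with log2 differences of -1.73, -0.94, -0.97, -0.48 and -0.79, and overlapped them for LRRC58, SPOPL, PI15, PHIP and OSBPL8; 28.7% of all probe sets were lower without overlap there. The departure from additivity, double minus ETV6 minus NFKB1 plus control, was positive on the brightest probe set of all 10 genes. Picking genes by falls with a single siRNA or rises with both favours such values, and double siRNA levels above single siRNA levels. Nothing is therefore read from either direction. The departure ran from 2.26 for NAPG to 3.89 for PI15 with a median of 2.73. Of all probe sets 83.3% were called, 40.7% higher (84.5% of all genes on their brightest probe set). The departure depended on the control arrays and their weights. It was 1.94 for NAPG with array weights, 4.17 for PI15 without control siRNA replicate 2, and 2.55 for OSBPL8 without control siRNA replicate 3 (2.89 with it). On the 11 other probe sets it ran from 0.27 to 3.07 with a median of 2.08. It was lowest there for PI15 (207938_at, 0.27), OGFRL1 (219582_at, 0.35), NAPG (210048_at, 0.43) and NIN (224304_x_at, 0.66).

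The 11 other probe sets, in the 8 genes that have them, were also part of the contrasts that picked the genes. With ETV6 siRNA 3 of 11 were called lower (4.06% of all probe sets), with NFKB1 siRNA 7 were called lower (23.7% of all) and with double siRNA 8 were called higher (36.5% of all), and nothing is read from these counts. The median differences were -0.20, -0.63 and 0.49, smaller than on the brightest probe sets.

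The spread between arrays differed between groups. On the brightest probe sets the SD over 3 arrays was 0.14 to 0.36 with ETV6 siRNA, 0.08 to 0.55 with NFKB1 siRNA, 0.006 to 0.13 with double siRNA, and 0.15 to 0.78 with control siRNA. Control replicates 1 and 2 differed by 0.01 to 0.34. Against those 2 arrays alone, double siRNA was higher for 9 of the 10 genes, all but NIN, whose double siRNA arrays overlapped them, with a median difference of 0.83 (41.9% of all probe sets). Against control siRNA replicate 3 alone all 3 double siRNA arrays were higher for 6 genes, SPOPL, PI15, CD2AP, OGFRL1, OSBPL8 and NRIP1, where 43.3% of all probe sets were, and the median difference over the 10 was 0.18. ETV6 siRNA arrays were below control replicates 1 and 2 for 6 of the 10, where 18.2% of all probe sets were, and NFKB1 siRNA arrays for 8, where 31.2% were.

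Some measures of whole arrays set the double siRNA arrays apart, as the level of the 10 genes did, and others did not. The mean deviation of the 10 genes from their own averages was -0.48, -0.17 and -0.65 in ETV6 siRNA arrays, -0.79, -0.94 and -1.32 in NFKB1 siRNA arrays, 1.19, 1.14 and 1.19 in double siRNA arrays, and 0.04, 0.005 and 0.79 in control siRNA arrays. The actin 3′ minus 5′ control difference, a measure of RNA integrity and labelling, was 2.05 to 2.16 with double siRNA, against 1.91 in control siRNA replicate 3 and 1.52 to 1.73 in the other 8 arrays. The poly-A spike-ins, RNA added before labelling, averaged 7.97 to 8.05 with double siRNA against 8.37 to 9.35 in the other 9 arrays, and the array median was 8.34 to 8.38 with double siRNA against 8.08 to 8.27. In the 8 arrays with an actin difference of 1.52 to 1.73, the mean deviation of the 10 genes ran from -1.32 to 0.04. The GAPDH 3′ minus 5′ difference overlapped, at 0.46 to 0.51 with double siRNA and 0.37 to 0.54 in the other 9 arrays. The hybridization control probe sets overlapped too, at means of 10.42 to 10.67 and 10.49 to 11.13. The part of any of these measures in the levels of the 10 genes was not tested.

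**Figure D4:**
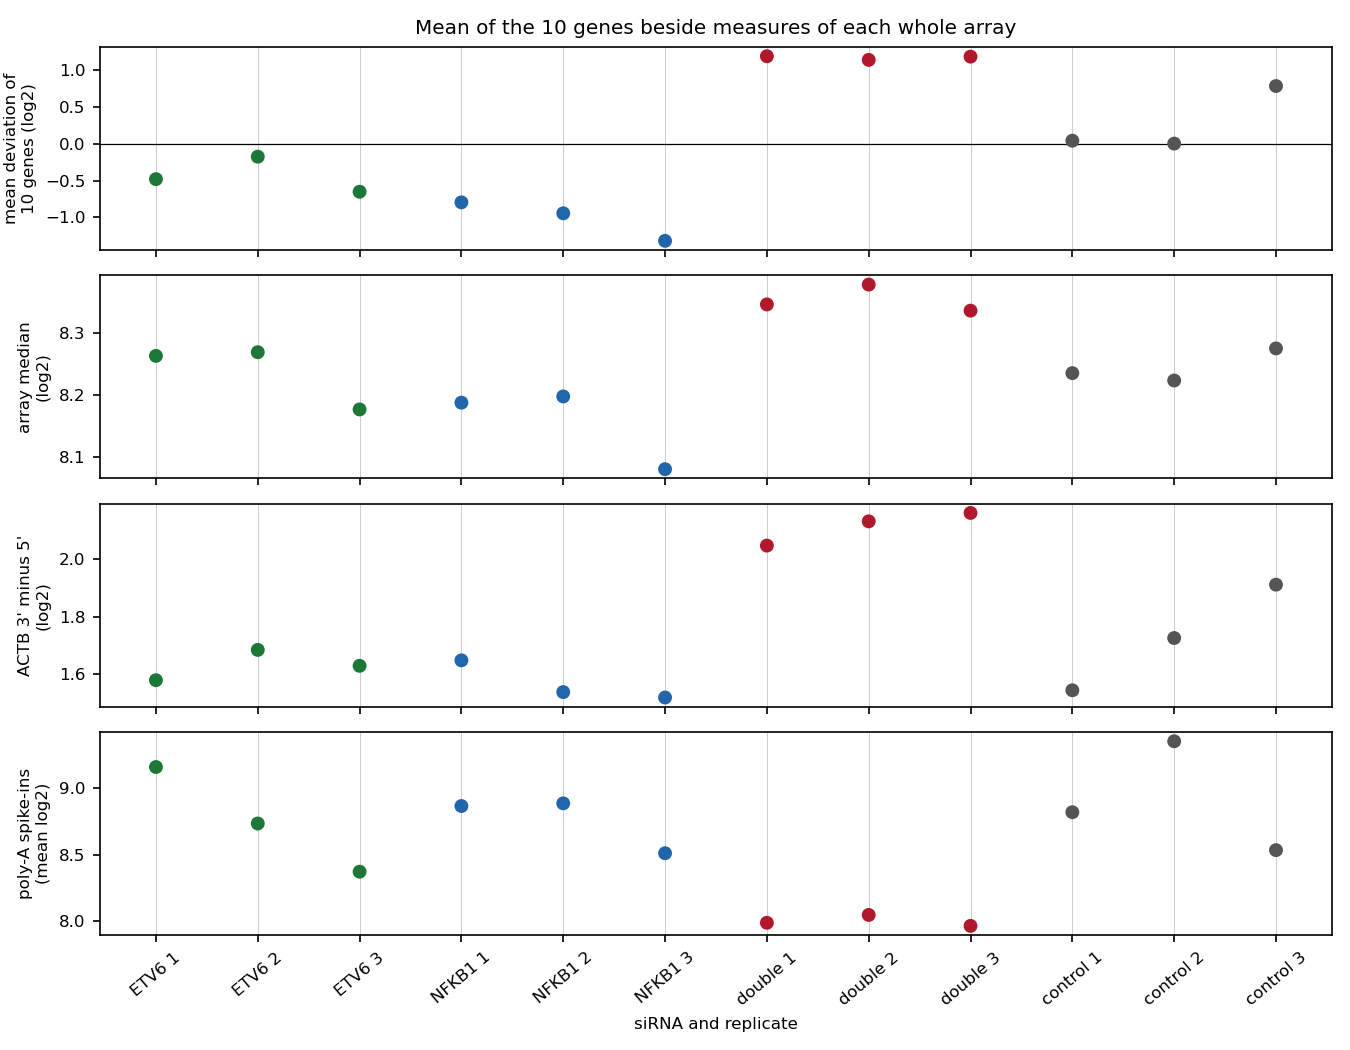
Mean deviation of the 10 genes (brightest probe sets), array median, actin 3′ minus 5′ difference and mean poly-A spike-in level of each array, from top to bottom and all in log2 units, with the arrays of ETV6, NFKB1, double and control siRNA from left to right. The 3 double siRNA arrays have the highest mean of the 10 genes, array median and actin difference and the lowest spike-in level, and control siRNA replicate 3 has the next highest values of the mean of the 10 genes, array median and actin difference.

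The genes whose pattern over the 12 arrays was most like the mean of the 10 were PIK3R1, the regulatory subunit of phosphoinositide 3-kinase, with a Pearson r of 0.999, ATP7A, a copper-transporting ATPase, with 0.996, TPR, a protein of the nuclear pore basket, with 0.994, and CLMP, SKIC3 and SMC2, each with 0.994. PIK3R1 read 8.87, 9.08 and 8.75 in ETV6 siRNA cells, 8.58, 8.53 and 8.26 in NFKB1 siRNA cells, 10.07, 10.03 and 10.09 in double siRNA cells, and 9.21, 9.27 and 9.76 in control siRNA cells. As for the mean of the 10 genes, the double siRNA arrays were highest, control siRNA replicate 3 came next and the NFKB1 siRNA arrays were lowest. Single genes departed from this order: control siRNA replicate 3 lay above every double siRNA array for LRRC58, NAPG and NIN. The points share groups, and a pattern of this kind was common: 1523 of 10336 genes, or 14.7%, had an r over 0.9. Each of the 10 genes had an r with the mean of the other 9 between 0.74 for NAPG and 0.98 for PI15. The 10 were picked on differences between these same arrays, so this likeness is partly built in.

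Relatives of the 10 genes by family or complex were tested in the same fit, each on its brightest probe set, 144 measured of 169 listed. With ETV6 siRNA 1 rose and 7 fell, 5.56% of the 144, where 6.86% of all genes were called, 2.59% higher and 4.27% lower (5 in all without ETV6 siRNA replicate 1 and 3 without ETV6 siRNA replicate 3). With NFKB1 siRNA 9 rose and 45 fell, 37.5% where 34.5% of all genes were called, 12.5% higher and 22% lower (6 and 36 without control siRNA replicate 3). With double siRNA 56 rose and 60 fell, 80.6% where 77.5% of all genes were called, 32.3% higher and 45.2% lower. In total calls the relatives thus stood near the background. By direction, 0.694% of them were higher and 4.86% lower with ETV6 siRNA. With NFKB1 siRNA 6.25% were higher and 31.2% lower, and with double siRNA 38.9% were higher and 41.7% lower. Their median log2 differences were -0.01, -0.04 and -0.02. The split with NFKB1 siRNA depended on array scaling: after a shift of all arrays to 1 median 30 rose and 35 fell. The genes named for double siRNA below are those with the smallest adjusted p in their list.

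Among 17 measured CUL3 adaptors and ligase genes, the kin of SPOPL, 6 rose and 7 fell with double siRNA. KLHL9, a CUL3 adaptor in mitosis, rose by 1.65 ± 0.15 (SE, limma adjusted p = 8.69e-06), CUL3 itself rose by 0.62 ± 0.07 (adjusted p = 2.06e-05), and KEAP1, the CUL3 adaptor for NRF2, fell by 0.55 ± 0.06 (adjusted p = 1.75e-05). With NFKB1 siRNA CUL3 fell by 0.38 ± 0.07 (adjusted p = 0.0019), and with ETV6 siRNA it was at 0.06 ± 0.07 (adjusted p = 0.741). Of the 17, 1 rose and 4 fell with NFKB1 siRNA. Of 17 PHIP kin and CUL4 ligase genes, 7 rose and 7 fell with double siRNA: CRBN, a CUL4 substrate receptor, rose by 1.15 ± 0.11 (adjusted p = 9.85e-06), the scaffold CUL4B rose by 1.08 ± 0.12 (adjusted p = 1.97e-05) and the linker DDB1 fell by 0.49 ± 0.06 (adjusted p = 4.26e-05). CUL4B fell by 0.60 ± 0.12 with NFKB1 siRNA (adjusted p = 0.00314), where 2 of the 17 rose and 5 fell. The scaffold CUL4B and its linker DDB1 thus moved in opposite directions with both siRNAs.

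Of 28 measured NSF, SNAP and SNARE genes, the kin of NAPG, 12 rose and 9 fell with double siRNA, and 2 rose and 8 fell with NFKB1 siRNA. STX6, a syntaxin of the Golgi and endosomes, rose by 0.58 ± 0.06 with double siRNA (limma adjusted p = 1.04e-05), SNAP23, a plasma membrane SNARE, by 0.64 ± 0.06 (adjusted p = 1.07e-05), and BET1, a SNARE between endoplasmic reticulum and Golgi, by 0.90 ± 0.09 (adjusted p = 1.51e-05). STX6 fell by 0.21 ± 0.06 with NFKB1 siRNA (adjusted p = 0.0162), a call that was lost after a shift of all arrays to 1 median (adjusted p = 0.151) and in 4 of 21 alternatives in all. Of 15 endocytic and actin adaptors, the kin of CD2AP, 4 rose and 9 fell with double siRNA, among them CAPZA1, a subunit of the actin capping protein that CD2AP binds, which rose by 0.56 ± 0.07 (adjusted p = 4.01e-05), the fission GTPase gene DNM2, which fell by 0.72 ± 0.08 (adjusted p = 2.24e-05), and the membrane-bending adaptor gene BIN1, which fell by 0.55 ± 0.07 (adjusted p = 4.91e-05). With NFKB1 siRNA 1 of the 15 rose and 3 fell.

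Of 17 measured centriole appendage and microtubule anchoring genes, the kin of NIN, 9 fell with NFKB1 siRNA, 52.9% where 22% of all genes fell, with a median log2 difference of -0.46 beside 0.02 over the brightest probe sets of all genes. The 9 were AKAP9, CEP128, PCM1, CNTRL, CEP135, CDK5RAP2, MAPRE1, TUBGCP3 and KIF2A, of which all but PCM1 were chosen for naming after their values were seen. The call of CEP135 was lost in 6 of 21 alternatives (adjusted p up to 0.181) and that of KIF2A in 4 of 21. AKAP9, a scaffold of the centrosome and Golgi, fell by 1.40 ± 0.18 (SE, limma adjusted p = 0.000263), CEP128, a subdistal appendage gene, by 1.06 ± 0.12 (adjusted p = 0.00012), and CNTRL, which encodes centriolin, by 0.65 ± 0.11 (adjusted p = 0.0012). Over 21 alternatives the number that fell lay between 7 and 10. It was 7 without control siRNA replicate 3, alone or together with ETV6 siRNA replicate 2, and without NFKB1 siRNA replicate 3. Fits of the compared groups alone also gave 7, and a filter at the 25th percentile kept 13 of the genes, of which 7 fell. After a shift of all arrays to 1 median 9 fell and 5 rose. With array weights 8 fell and 4 rose, and the median log2 difference was -0.23. With ETV6 siRNA, compared with the same control arrays, 3 of the 17 fell: AKAP9 fell by 0.95 ± 0.18 (adjusted p = 0.0121, lost in 1 of 21 alternatives), CEP128 fell by 0.50 ± 0.12 (adjusted p = 0.0341, lost in 12 of 20 alternatives) and CNTRL fell by 0.54 ± 0.11 (adjusted p = 0.0148, lost in 2 of 20). With double siRNA 5 of the 17 rose and 8 fell: PCM1, the scaffold of centriolar satellites, rose by 0.94 ± 0.13 (adjusted p = 6.43e-05), while of the gamma-tubulin complex genes TUBGCP2 fell by 0.54 ± 0.06 (adjusted p = 1.68e-05) and TUBG1 fell by 0.52 ± 0.06 (adjusted p = 2.86e-05). PCM1 read 7.47, 7.34 and 7.16 in NFKB1 siRNA cells and 8.99, 9.04 and 9.01 in double siRNA cells, against 7.97, 7.92 and 8.33 in control siRNA cells, so that it lay below control with NFKB1 siRNA and above it with both.

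The other calls with ETV6 siRNA, also named after their values were seen, were these. KLHL7, a CUL3 adaptor, fell by 0.72 ± 0.07 (limma adjusted p = 0.00053), the phosphoinositide phosphatase gene SACM1L fell by 0.64 ± 0.13 (adjusted p = 0.0133, lost in 3 of 21 alternatives), the syntaxin gene STX2 fell by 0.34 ± 0.05 (adjusted p = 0.00604, lost in 1 of 21), and STX12 fell by 0.25 ± 0.06 (adjusted p = 0.0243, lost in 7 of 21 alternatives). VAMP3, a SNARE of recycling endosomes, rose by 0.25 ± 0.05 (adjusted p = 0.0129, lost in 2 of 21).

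Of 16 measured nuclear receptor co-regulators, the kin of NRIP1, 8 rose and 7 fell with double siRNA. TBL1XR1, an exchange factor of the NCoR co-repressor complex, rose by 1.82 ± 0.16 (SE, limma adjusted p = 7.39e-06), its paralog TBL1X fell by 0.57 ± 0.06 (adjusted p = 1.69e-05), and NCOA4, a co-activator and ferritin receptor of autophagy, rose by 0.49 ± 0.07 (adjusted p = 8.72e-05). TBL1XR1 read 11.44, 11.43 and 11.48 in double siRNA cells, against 9.42, 9.38 and 10.07 in control siRNA cells. With NFKB1 siRNA 1 of the 16 rose and 7 fell, 43.8% where 22% of all genes fell. Among the 7 was NCOA4, which fell by 0.38 ± 0.07 (limma adjusted p = 0.00192). Of 17 oxysterol binding protein and contact site genes, the kin of OSBPL8, 7 rose and 5 fell with double siRNA: OSBPL11 rose by 0.98 ± 0.16 (adjusted p = 0.000194), OSBPL7 fell by 0.54 ± 0.05 (adjusted p = 7.42e-06), and the extended synaptotagmin gene ESYT1 fell by 0.57 ± 0.09 (adjusted p = 0.000131). With NFKB1 siRNA 1 of these 17 rose and 5 fell.

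Of the CAP domain genes, the kin of PI15, 2 of 12 were measured. GLIPR1 rose by 1.49 ± 0.08 with double siRNA (limma adjusted p = 2.92e-06), and CRISPLD1 rose by 0.80 ± 0.19 (adjusted p = 0.00278). Both fell with NFKB1 siRNA, by 0.29 ± 0.08 (adjusted p = 0.0229) and 0.72 ± 0.19 (adjusted p = 0.0146), and neither passed with ETV6 siRNA. GLIPR1 lost its call with NFKB1 siRNA in 5 of 21 alternatives, one of them without control siRNA replicate 3 (-0.21, adjusted p = 0.0731), and CRISPLD1 without NFKB1 siRNA replicate 3 (-0.61, adjusted p = 0.052). Of 15 genes of the LRRC and OGFR names, the kin of LRRC58 and OGFRL1, 5 rose and 8 fell with double siRNA and 1 rose and 2 fell with NFKB1 siRNA. LRRC8B and LRRC8D, subunits of the volume-regulated anion channel, rose by 1.23 ± 0.13 and 0.69 ± 0.07 with double siRNA (adjusted p = 1.45e-05 and 1.05e-05), and LRRC20 fell by 0.76 ± 0.08 (adjusted p = 1.96e-05).

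**Figure D5:**
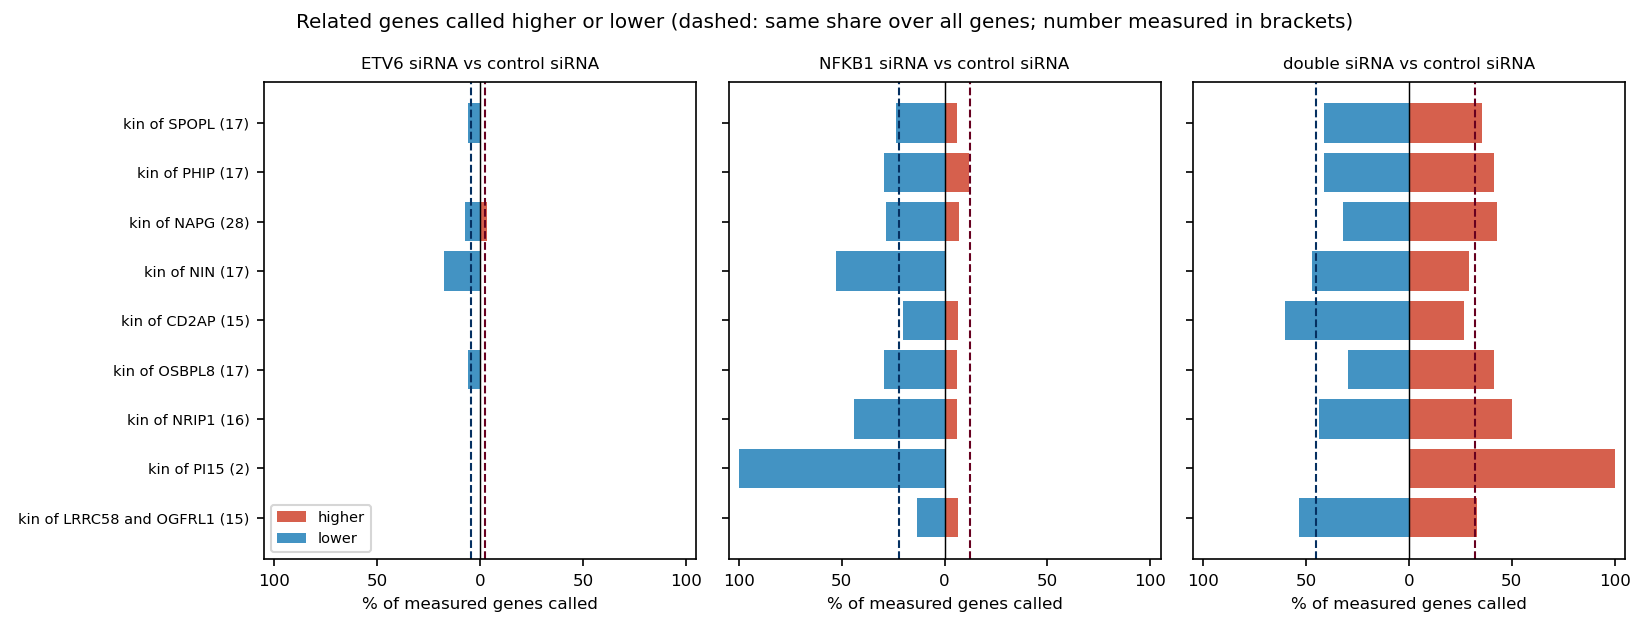
Share of the measured related genes called higher (right of 0) or lower (left of 0), in percent, for each family with its number of measured genes in brackets, with ETV6, NFKB1 and double siRNA; dashed lines are the shares over all genes. With NFKB1 siRNA the kin of NIN stood left of the dashed line, at 52.9% against 22%. So did the kin of PI15 (100%, 2 genes), NRIP1 (43.8%), PHIP (29.4%), OSBPL8 (29.4%), NAPG (28.6%) and SPOPL (23.5%). The kin of CD2AP (20%) and of LRRC58 and OGFRL1 (13.3%) did not.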

How the data were processed

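Total RNA of U251 cells was measured on 12 single-channel expression arrays, 4 groups of 3. The authors deposited log2 probe set levels, between 3.05 and 14.75, which are the unit of all values here. Background correction, summarization and normalization are not given in the sources used here. How the probe sets of the deposited table were chosen is not given either. The table may hold only part of the array, and shares of all probe sets or genes refer to the table. Precision is limited by the number of arrays. Genes were named through the platform's annotation. It gave 1 gene for 17313 of the 19520 probe sets, several for 857 and none for 1293, and 57 were controls. All 10 genes matched RefSeq by Entrez identifier, and promoters came from RefSeq on GRCh38.p14. 0 pairs of arrays were identical, and 0 columns were left unused.

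All single-gene probe sets of the deposited table entered 1 fit of group means in limma 3.58.1 (R 4.3.3, lmFit, eBayes, no further filter, 8 residual and 3.03 prior degrees of freedom). Two-sided p-values got the Benjamini-Hochberg adjustment over all 17313, and calls were made at an adjusted p under 0.05. With 3 arrays a group, the smallest p of an exact permutation test is 0.1. The fit was also run on simulated data with independent normal noise and few changed probe sets. Those data lack the unequal group spreads and the many calls of these arrays, so nothing is concluded from them. The brightest probe set of a gene, the one with the highest mean, stands for it.

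The 10 genes, the lists of related genes and the tests were chosen with earlier results of these data known. All 10 genes are named, with up to 3 genes of each related list by the smallest adjusted p in double siRNA against control, the 6 genes most like the mean of the 10 over the arrays, and ETV6 and NFKB1. Alternatives were array scaling (median shift, quantile), a filter at the 25th percentile, 1 probe set per gene, trend and robust variances, array weights, fits of only 2 groups at a time, the replicate number as a block, and fits without single arrays.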

Additional observations from a re-analysis of the deposited data

Results flagged for a closer look

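The departure from additivity was tested in the related genes as double minus ETV6 minus NFKB1 plus control. All 26 named related genes differed from 0 in this test (limma, Benjamini-Hochberg adjusted p under 0.05), 16 above and 10 below. These genes were named for a small p with double siRNA, which is part of this test, and 84.5% of all genes on their brightest probe set were called by it, so that nothing particular to them is read from the count.

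Above 0 on the log2 scale were TBL1XR1 at 2.26 (adjusted p = 1.53e-05), PCM1 at 2 (adjusted p = 9.02e-06), CRISPLD1 at 1.94, LRRC8B at 1.74, CUL4B at 1.69, KLHL9 at 1.62, OSBPL11 at 1.57 and GLIPR1 at 1.56. NCOA4 was at 1.05, CUL3 at 0.94, CRBN at 0.86, BET1 at 0.73, CAPZA1 at 0.72, STX6 at 0.7, LRRC8D at 0.63 and SNAP23 at 0.41, the last with the highest adjusted p, 0.00122.

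Below 0 were BIN1 at -0.88 (adjusted p = 2.74e-05), ESYT1 at -0.81, DNM2 at -0.75, OSBPL7 at -0.73, LRRC20 at -0.69, TUBGCP2 at -0.67, DDB1 at -0.59, TUBG1 at -0.55, TBL1X at -0.52 and KEAP1 at -0.51 (adjusted p = 0.000223).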

How the results depend on the processing

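Over 21 alternatives none of the called differences of the 10 genes or of the named related genes changed sign. Small differences from control that were not called did on the brightest probe sets: OSBPL8 (-0.57 to 0.03), NRIP1 (-0.30 to 0.50) and OGFRL1 (-0.11 to 0.34) with ETV6 siRNA, and NIN (-0.24 to 0.03) and NAPG (-0.08 to 0.12) with double siRNA. The median difference of the 10 genes from control with NFKB1 siRNA was -1.02 with array weights and -1.12 without control siRNA replicate 3, alone or together with ETV6 siRNA replicate 2, against -1.44. Leaving out each array gave -1.55 to -1.12 for NFKB1 siRNA, -0.81 to -0.59 for ETV6 siRNA and 0.49 to 0.83 for double siRNA. The 8 related genes called with ETV6 siRNA became 22 with array weights and 1 in fits of the compared groups alone, and 3 to 10 when single arrays were left out; the 54 with NFKB1 siRNA became 24 in fits of the compared groups alone and 40 to 62, and the 116 with double siRNA 110 to 117. Of the other probe sets of the 10 genes, 0 were called with ETV6 siRNA and 4 with NFKB1 siRNA in fits of the compared groups alone, against 3 and 7; a filter at the 25th percentile kept 6 of the 11, of which 2 were called with NFKB1 siRNA and 5 with double siRNA; leaving out arrays gave 3 in each case, 6 to 7 and 7 to 8. With 1 probe set per gene they have no value.

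Over all probe sets 1099 were called with ETV6 siRNA, 2980 with array weights, 69 in fits of the compared groups alone, 439 without ETV6 siRNA replicate 1 and 487 without ETV6 siRNA replicate 3. With NFKB1 siRNA 6035 were called, 3179 in fits of the compared groups alone and 3726 with 1 probe set per gene. With double siRNA 13234 were called, 8094 with 1 probe set per gene. Of the calls with NFKB1 siRNA 31.9% were higher, 54.7% after a shift of all arrays to 1 median and 53% after quantile normalization. The causes were not tested.

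Replicate numbers do not pair the samples by any label. Deviations of same-numbered arrays from their group means had an r of -0.445 to 0.446, with 10 of 18 below 0. Different-numbered arrays had an r of -0.455 to 0.577, with 19 of 36 below 0. The highest was between control siRNA replicate 3 and ETV6 siRNA replicate 2, the 2 arrays also left out together. Centring on group means forces a mix of signs, so nothing is read from the signs. With the replicate number as a block, 907, 5903 and 13229 probe sets were called with ETV6, NFKB1 and double siRNA, and 7, 51 and 118 related genes.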
